A study of Mus musculus with 7 samples.

Results

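Mitotic tumor nuclei were described in a single-nucleus RNA sequencing study of small cell lung cancer in 4 male mice. The 2 RP animals, RP1 and RP2, carried Rb1 fl/fl and Trp53 fl/fl alleles, and the 2 RPC animals, RPC1 and RPC2, carried in addition a conditional Casp8 allele, whose loss the labels write as Casp8-/-. All 4 animals inhaled an adenovirus that expresses Cre from the CMV promoter, which is not limited to a cell type, so that any infected lung cell could recombine its alleles. Lung tumors were taken at the endpoint and fresh-frozen, and the comparison of RPC with RP addresses the loss of Casp8, which encodes a protease that starts apoptosis and restrains necroptosis, on a background without Rb1 and Trp53. Each of the 7 libraries pooled nuclei of all 4 animals, so the animal was the replicate. A nucleus counted as mitotic where at least 4 of 12 mitotic genes were detected, their summed counts made up at least 0.3% of its transcripts, and no transcript of Ptprc, Flt1, Ptprb, Sftpc or Col1a2 was present. These 12 genes were Knl1, Kif15, Kif11, Top2a, Mki67, Cenpe, Ckap2, Iqgap3, Kif14, Ect2, Ndc80 and Depdc1b, and the 5 excluded genes mark immune, endothelial, alveolar type 2 and fibroblast cells. The rule found 7848 mitotic nuclei among 38254 nuclei that passed the quality filters. RP1 held 1751 of them, RP2 1387, RPC1 2220 and RPC2 2490.

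A dividing cell passes through G1, copies its DNA in S phase, prepares in G2 and separates its chromosomes in mitosis. Many genes of the last steps are transcribed from late S phase on and reach their highest levels in G2 and mitosis, when kinesin motors build the spindle, the kinetochore ties each chromosome to it, and the spindle checkpoint holds the anaphase-promoting complex until every chromosome is attached. The retinoblastoma protein restrains E2F factors, and p53 represses many of these genes through its target Cdkn1a. Small cell lung cancer, which as a rule has lost both proteins, is a neuroendocrine tumor known for its fast growth. Nuclei chosen by such transcripts can be in G2 as well as in mitosis proper.

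The promoters of mitotic genes are known for a short element, the cell cycle genes homology region (CHR), which together with CCAAT boxes binds the MuvB and NF-Y complexes. Since members of the group share transcripts of these genes, the promoters of 4 genes of the rule are shown. Top2a and Ect2 carry both kinds of letters before the start, and Depdc1b carries CCAAT alone there. Mki67 carries neither there, and its CCAAT letters lie after the start. Each line is read from GRCm39, 5′ to 3′ on the strand of the gene, over the 170 bases before the start of the canonical transcript, and bases inside the annotated gene are left out, which leaves 149 for Top2a. Capitals mark TTTGAA or TTCGAA, the letters searched for CHR, and CCAAT, each on either strand, so that CCAAT on the other strand reads ATTGG. These are chr11:98915063-98915211 (minus strand) for Top2a, the topoisomerase that untangles sister chromatids, chr3:27208030-27208199 (minus) for Ect2, which starts the cleavage furrow, chr13:108452696-108452865 (plus) for Depdc1b, whose CHR letters lie after the start, and chr7:135318300-135318469 (minus) for Mki67, which coats mitotic chromosomes and has no CHR letters in the window searched.
Top2a: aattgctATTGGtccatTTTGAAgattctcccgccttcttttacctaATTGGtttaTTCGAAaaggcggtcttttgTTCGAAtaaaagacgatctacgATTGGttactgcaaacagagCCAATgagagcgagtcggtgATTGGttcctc
Ect2: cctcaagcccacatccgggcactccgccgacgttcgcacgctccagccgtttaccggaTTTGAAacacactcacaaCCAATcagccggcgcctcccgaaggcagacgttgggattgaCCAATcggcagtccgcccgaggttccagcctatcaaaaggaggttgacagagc
Depdc1b: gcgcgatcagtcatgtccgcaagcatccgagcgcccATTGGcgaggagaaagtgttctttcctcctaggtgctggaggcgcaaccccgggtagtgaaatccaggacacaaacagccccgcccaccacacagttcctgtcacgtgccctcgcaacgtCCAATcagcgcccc
Mki67: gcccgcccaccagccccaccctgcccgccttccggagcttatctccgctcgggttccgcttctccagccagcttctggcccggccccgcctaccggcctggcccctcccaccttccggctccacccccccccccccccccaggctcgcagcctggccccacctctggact

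In the window of 250 bases before to 50 bases after the canonical start, the CHR letters stood in 8 of the 12 rule genes (66.7%) and in 18.7% of 21654 protein-coding genes. CCAAT stood in 8 of the 12 (66.7%) and in 40.0% of all, and both together in 5 of the 12 (41.7%) and in 8.22% of all. Among the genes of the lists of mitosis described below, the CHR letters were present in 50 of 102 (49.0%) that were at least 2-fold higher in the mitotic than in the non-cycling nuclei of every animal, and in 7 of 30 (23.3%) that were not. The 12 genes used to find S-phase nuclei, such as Cdc6 and Mcm6, had the CHR letters in 1 promoter (8.33%) and CCAAT in 9 (75.0%), and an E2F site, here TTNNCGC with C or G at each N on either strand, in 8 of 12 (66.7%), against 2 of the 12 mitotic rule genes (16.7%) and 11.2% of all promoters. The letters of the different motifs were counted separately where they overlapped. The E2F letters were set after a first search with a longer set, so their counts are a description. A match describes letters in this window and is neither a site nor a cause.

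Among the kept nuclei of RP1 20.9% were mitotic, for RP2 this was 15.6%, for RPC1 20.5% and for RPC2 24.5%. The median number of rule genes detected was 8 in both RP animals, 10 in RPC1 and 9 in RPC2, and all 12 were detected in 105, 62, 494 and 345 nuclei, in the order RP1, RP2, RPC1 and RPC2 that is kept below. Their median summed share was 0.577%, 0.561%, 0.71% and 0.719% of a nucleus' transcripts. From the 10th to the 90th percentile it ran from 0.348% to 0.916% in RP1 and from 0.368% to 1.29% in RPC2. Just inside the limit, from 0.30% to 0.35%, lay 188, 143, 172 and 185 nuclei, and just outside it, from 0.25% to 0.30%, lay 167, 134, 219 and 215 that met the other conditions. There was thus no gap in the values at the limit. With exactly 4 rule genes there were 132, 132, 154 and 272 members, and 127, 146, 166 and 284 nuclei missed the rule with 3. A further 255, 251, 487 and 624 nuclei met the mitotic conditions but held a transcript of an excluded gene.

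The mitotic nuclei were deep. Their median depth was 3227, 2910, 4901 and 3616.5 transcripts, which was 1.74, 1.51, 1.66 and 1.53 times that of the other nuclei without the 5 excluded genes (1.61 ± 0.109, SD, n = 4 animals). The requirement for several detected genes favors deep nuclei, so depth is in part set by the rule. RPC nuclei were also deeper than RP nuclei, and shares were therefore compared after every nucleus had been drawn down to the same number of transcripts. No barcode was shared between animals. Within an animal, 2890 of the 7848 mitotic nuclei shared the wells of their barcode with a nucleus of another sublibrary. The same held for 14027 of all 38353 deposited nuclei. In split-pool barcoding this is possible for different nuclei.

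Nuclei that carry markers of another cell type also met the mitotic conditions. Nuclei with at least 3 of 8 endothelial markers or at least 3 of 9 macrophage markers were few, and after drawing 1000 transcripts per nucleus 10.9% (11 of 101), 8.57% (12 of 140), 8.39% (12 of 143) and 13.5% (30 of 222) of the endothelial-marked ones passed the limits on the 12 genes. For macrophage-marked nuclei these shares were 8.82% (12 of 136), 9.16% (23 of 251), 15.0% (32 of 214) and 18.6% (33 of 177). Nuclei without the 5 excluded genes passed in 19.1%, 13.6%, 16.7% and 21.6% of cases in the same draw, at median depths of 2469, 2380, 3316 and 2811.5 transcripts, against 4019, 4840, 9956 and 6398 in the endothelial-marked and 5056.5, 4129, 6955 and 5333 in the macrophage-marked nuclei. In this draw the share was therefore higher in the nuclei without these genes. The difference was less than 2-fold except against the macrophage-marked nuclei of RP1. With a deeper draw, given below, this order did not hold in RPC1 and RPC2. The summed level of the 20 neuroendocrine genes in mitotic nuclei was 125%, 105%, 99.97% and 99.4% of that in endothelial-marked nuclei, so the marked nuclei held tumor transcripts at about the same level. Whether free RNA, doublets or division of those cells gave the passing nuclei was not tested.

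**Figure D1:**
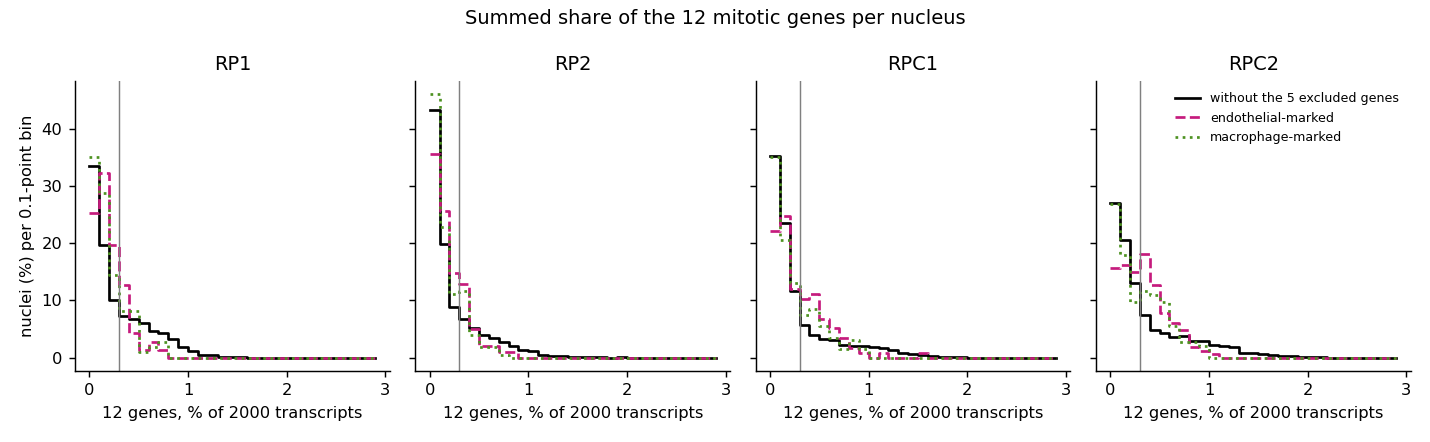
Summed share of the 12 mitotic genes in each nucleus after drawing 2000 transcripts (x axis, % of transcripts) against the percentage of nuclei per bin of 0.1 points (y axis), in each animal, for nuclei without the 5 excluded genes (black), endothelial-marked (dashed) and macrophage-marked nuclei (dotted). The vertical line is the limit of 0.3%. The black lines fall without a gap across the limit and reach farther right in RPC1 and RPC2, and the reference nuclei end sooner.

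The upper part of the distribution was less shared with these references. At 1% or more of 2000 drawn transcripts, a limit chosen after the values were seen, there were 0 of 71 endothelial-marked nuclei in RP1 and 0 of 101 in RP2, where 0 nuclei allow up to 4.23% and 2.97%, and 2 of 117 and 1 of 166 in RPC1 and RPC2. None of the 111, 206, 199 and 145 macrophage-marked nuclei reached it, which allows up to 2.70%, 1.46%, 1.51% and 2.07%. Of the nuclei without the 5 excluded genes, 91 of 3873 (2.35%), 93 of 3908 (2.38%), 558 of 7526 (7.41%) and 541 of 5599 (9.66%) did. In RP1 both limits, and in RP2 the endothelial one, lie above these shares, so a difference was not detectable there. At 0.5% or more the classes overlapped again, with 22.5%, 15.9%, 19.6% and 26.3% of the nuclei without the 5 genes and 5.63%, 5.94%, 17.9% and 21.7% of the endothelial-marked nuclei.

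For the content of the mitotic nuclei, their counts were summed per animal and set beside 2 other classes without the 5 excluded genes. There were 6798 S-phase nuclei, which were not mitotic and held at least 4 of 12 replication genes at 0.2% or more. The 4398 non-cycling nuclei held at most 1 gene of each set and at least 1000 transcripts. Their median depths were 1600, 1633, 2091 and 1906 transcripts, below those of mitotic nuclei, and the limit on detected genes favors shallow nuclei. Low levels of both gene sets in this class follow from how it was chosen. Values are CPM, the counts of a summed class scaled to the same total in each, and a gene counted as higher or lower where it differed at least 2-fold in all 4 animals, with 1 CPM added to both sides. Against non-cycling nuclei 427 of 13260 genes were higher (3.22%) and 130 lower (0.98%), with a median log2 ratio over all genes of −0.04. Against S-phase nuclei 214 of 12945 were higher (1.65%) and 6 lower (0.0463%). The counts of lower genes depended on the setting: the 130 became 1 against all other nuclei, 47 with 5 CPM added, 199 without the deepest nuclei, 223 without RP1 and 229 without RPC1, and the 6 became 23 with a stricter S-phase class and 19 without RPC1. All of this describes nuclei that were chosen by these genes or by genes that are transcribed with them, and no test was made. Reads inside introns count for nuclei, and CPM is not per length, so that levels are compared between classes and not between genes.

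The 5 marker genes of the group stood far above both classes, as the rule requires. Knl1, the kinetochore scaffold that recruits the checkpoint kinases, was at 493, 490.1, 601 and 561 CPM in mitotic nuclei, at 83.4, 59.3, 81.9 and 84.1 CPM in S-phase nuclei and at 13.6, 11.9, 11.9 and 9.81 CPM in non-cycling nuclei. Its log2 ratio was 5.39 ± 0.28 (SD, n = 4) to non-cycling and 2.79 ± 0.20 to S-phase nuclei, and the 4 animals did not overlap between any of the classes. Ndc80, which grips the microtubule end, was at 211, 194, 232 and 248 CPM against 5.02, 5.77, 5.72 and 8.83 CPM in non-cycling nuclei. Top2a was at 1019.9, 1079.9, 1078 and 1060.2 CPM against 283, 262, 346 and 326 in S-phase and 60.3, 48.4, 49.3 and 45.1 in non-cycling nuclei, and its ratio to S-phase nuclei was the smaller one at 1.81 ± 0.18 on the log2 scale. Mki67, which marks every cycling cell, had the least contrast of the 12, at 2.97 ± 0.25 to non-cycling and 1.52 ± 0.12 to S-phase nuclei. Its non-cycling level was 196, 144, 226 and 242 CPM.

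Motor proteins made up a large part of the rule. Kif15 and Kif11, which both push spindle poles apart, had log2 ratios to non-cycling nuclei of 5.52 ± 0.31 and 5.22 ± 0.31. Kif11 varied between animals, at 443, 335, 222 and 371 CPM in mitotic nuclei, with RPC1 lowest in all 3 classes. Cenpe, the motor that carries chromosomes to the spindle equator, was at 483, 627, 629 and 584 CPM, and Kif14, a motor of the cleavage plane, at 191, 173, 203 and 180.4 CPM. Iqgap3, a scaffold of the cell cortex, was at 151, 167, 189 and 158 CPM against at most 1.76 CPM in non-cycling nuclei (6.10 ± 0.10), and Depdc1b at 145, 171, 169 and 158 CPM against 1.76 to 3.52 CPM (5.60 ± 0.41). Ect2 lay at 279, 264, 271 and 265 CPM and Ckap2 at 269.9, 264, 412 and 420.1 CPM. In single nuclei drawn to 2000 transcripts the genes were seen unequally. Mki67 was detected in 89.1%, 91.9%, 94.7% and 97.1% of the mitotic nuclei and Top2a in 85.9% to 88.4%, but Depdc1b in 27.1% to 32.1% and Iqgap3 in 24.5% to 34.4%, so most members were called without the last pair.

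**Figure D2:**
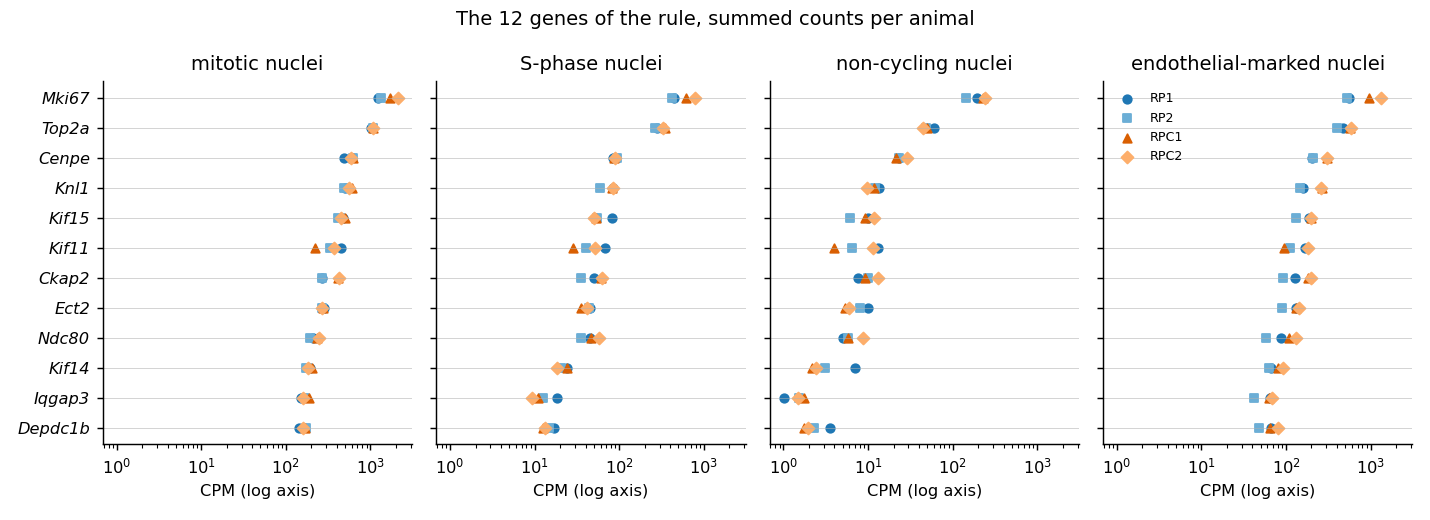
Level of the 12 genes of the rule (rows) in summed counts per animal, in CPM on a log axis, for mitotic, S-phase, non-cycling and endothelial-marked nuclei. Each point is an animal; every gene is highest in the mitotic and lowest in the non-cycling nuclei, and the endothelial-marked nuclei lie between S-phase and mitotic nuclei for most genes.

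Chromosome structure and attachment genes that the rule did not use were also higher. Of 12 genes of condensin, the ring complex that compacts chromosomes, and chromosome structure, 10 were higher than in non-cycling nuclei and 7 higher than in S-phase nuclei (median log2 ratios 2.24 and 1.16). No list described from here on holds a gene of the rule. Ncapg, a condensin subunit, was at 111, 131, 159 and 141 CPM against 6.03, 11.2, 7.48 and 11.3 CPM in non-cycling nuclei (3.8 ± 0.38), and Kif22, a chromosome-bound motor, at 143, 148, 149 and 152 CPM against 6.60 to 9.81 CPM (4.11 ± 0.21). Of 26 kinetochore and centromere genes 23 were higher than in non-cycling and 15 higher than in S-phase nuclei. Cenpa, the histone variant that marks the centromere and is made in G2, was at 116, 112, 99.9 and 79.9 CPM against 14.9, 8.80, 7.35 and 8.28 CPM in S-phase nuclei (3.28 ± 0.34). Cohesin holds sister chromatids together from S phase on, and 6 of its 14 compared genes were higher than in non-cycling nuclei, with a median of 0.51. The 6 included Espl1, the protease that cuts cohesin at anaphase, at 123, 112, 94.7 and 91.8 CPM against 3.01 to 5.89 CPM (4.30 ± 0.49), and Esco2, which acetylates cohesin in S phase, at 4.32 ± 0.19. Espl1 and Esco2 were named for their large ratios in this list, whose other genes had smaller ratios.

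Spindle genes and the kinases that drive entry into mitosis were higher in nearly all members of their lists. Of 21 spindle motor and microtubule genes 18 were higher than in non-cycling and 17 higher than in S-phase nuclei (medians 3.51 and 2.33), among them Nusap1, which bundles microtubules at chromosomes, at 328, 342, 296 and 302 CPM against 64.2, 56.4, 58.6 and 59.9 CPM in S-phase nuclei (2.39 ± 0.13). All 22 mitotic kinases and cyclins were higher than in non-cycling nuclei and 19 were higher than in S-phase nuclei (medians 3.28 and 2.24). Cdc25c, the phosphatase that switches on Cdk1 at the end of G2, was at 92.2, 76.3, 133 and 108 CPM in mitotic, 10.3, 7.61, 12.4 and 9.17 in S-phase and 3.01, 2.69, 4.84 and 4.91 CPM in non-cycling nuclei. Its S-phase level was thus closer to the non-cycling than to the mitotic one. Aurkb, the kinase that corrects wrong attachments, was at 87.1, 65.5, 85.4 and 61.5 CPM against 1.47 to 4.23 CPM in non-cycling nuclei (4.18 ± 0.41), Mastl at 4.10 ± 0.42 and Melk at 4.49 ± 0.17. The spindle checkpoint followed with 9 of 11 genes higher than in non-cycling and 7 higher than in S-phase nuclei, Bub1 at 83.9, 91.2, 107 and 89.0 CPM and Ttk, also named Mps1, at 141, 156, 163 and 153 CPM.

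The anaphase-promoting complex differed less. Of 14 genes of the anaphase-promoting complex and of exit, 5 were higher than in non-cycling nuclei and 3 higher than in S-phase nuclei, with medians of 0.51 and 0.65. Its activator Cdc20 was at 36.1 to 53 CPM against 1.76 to 7.36 CPM in non-cycling nuclei (3.34 ± 0.50), and its ubiquitin-conjugating enzyme Ube2c at 72.1, 36.7, 33.6 and 30.8 CPM against 4.02, 2.31, 3.96 and 6.87 CPM (3.05 ± 0.82), with RP1 above the other animals. Of 13 cytokinesis genes 10 were higher than in non-cycling and 9 higher than in S-phase nuclei (medians 3.39 and 1.97). Cit, the kinase of the midbody, was at 669, 568, 462 and 416 CPM against 139, 98.0, 81.8 and 68.8 in S-phase and 28.6, 27.7, 22 and 20.1 CPM in non-cycling nuclei, so that the order of the animals was the same in all 3 classes. Anln, a scaffold of the contractile ring, was at 291, 288, 323 and 256 CPM (3.94 ± 0.29). Centrosome genes were shared with S phase: 10 of 11 were higher than in non-cycling nuclei but 2 were higher than in S-phase nuclei, and Stil, needed to copy centrioles, had ratios of 3.76 ± 0.24 and 1.25 ± 0.10.

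Among genes of the steps before mitosis, the replication list was lower in its median and sum than in S-phase nuclei. Of 35 replication genes 10 were higher than in non-cycling nuclei (median 0.79) and none was higher or lower by 2-fold than in S-phase nuclei, where the median was −0.53. The summed level of the list was 2045, 2099, 2186 and 2127 CPM in mitotic, 3027, 2977, 3032 and 3043 CPM in S-phase and 1231, 1275, 1274 and 1134 CPM in non-cycling nuclei. Mitotic nuclei were thus between both classes in every animal, which also follows in part from how the S-phase class was chosen. Pole, the leading-strand polymerase, was lower than in S-phase nuclei by 0.40 ± 0.09 on the log2 scale, and Ticrr, a factor of the start of replication, was higher by 1.23 ± 0.24. Of the 12 genes that define the S-phase class, 11 were at least 2-fold higher than in non-cycling nuclei, and 4, Pola1, Dtl, Cdc6 and Mcm6, were at least 2-fold lower than in S-phase nuclei. Of 19 E2F and MYB factors 7 were higher than in non-cycling nuclei and 1 was higher than in S-phase nuclei. That gene was Foxm1, the factor that activates G2 and mitotic genes, at 82.3, 64.7, 82.3 and 59.2 CPM against 20.3, 11.7, 16.7 and 12.1 CPM (2.19 ± 0.17). By contrast the E2F repressor genes E2f7 and E2f8 differed from S-phase nuclei by −0.30 ± 0.14 and 0.10 ± 0.08.

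Cyclins of G1 gave opposite directions. Ccne1, the cyclin of entry into S phase, was at 22.6, 23.8, 30.1 and 31.8 CPM in mitotic nuclei, at 68.9, 62.1, 60.7 and 71.2 CPM in S-phase and at 7.54 to 10 CPM in non-cycling nuclei. Ccnd3, a D-type cyclin upstream of the retinoblastoma protein, was lower in mitotic nuclei at 142, 159.9, 201 and 136 CPM than in non-cycling nuclei at 446, 398, 543 and 409 CPM (−1.49 ± 0.15), and close to S-phase nuclei (0.11 ± 0.04). It was the one lower gene among 15 of the list, and 1 was higher. Of 26 DNA repair and checkpoint genes 16 were higher than in non-cycling nuclei and 4 higher than in S-phase nuclei. Polq, the polymerase of microhomology-mediated end joining, was at 141, 165, 228 and 194 CPM against 51.7, 46.2, 73.7 and 78.0 CPM in S-phase nuclei (1.54 ± 0.23). Of 14 genes of the nuclear envelope, which is taken apart in mitosis, Lmnb1 (1.76 ± 0.25) and Tmpo (1.37 ± 0.18) were higher than in non-cycling nuclei and none was higher than in S-phase nuclei.

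Replication-dependent histone genes, whose transcripts are made in S phase, lack a poly(A) tail and are then destroyed, were higher in mitotic than in S-phase nuclei. The summed level of 66 such genes was 247, 318, 263 and 411 CPM in mitotic nuclei, 118, 114, 87.8 and 153 CPM in S-phase nuclei and 104, 102, 71.2 and 120.2 CPM in non-cycling nuclei. Of the 14 with enough counts, 7 were higher than in non-cycling and 3 higher than in S-phase nuclei. H2bc6 was at 44.9, 60.5, 20.7 and 29.5 CPM against 4.41 to 10 CPM in S-phase nuclei (2.16 ± 0.35), and H1f5, a linker histone, at 31.8, 29.4, 24.8 and 47.6 CPM against 14.3, 14.0, 8.15 and 14.3 CPM (1.32 ± 0.31). Histone genes are near-identical copies between which reads may be split, so the levels of single histone genes are uncertain. H2bc6 is annotated over chr13:23766595-23805139, far longer than H1f5 at chr13:21964053-21964795, and counts cover whole genes. Which transcripts gave the counts of H2bc6 was not tested.

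**Figure D3:**
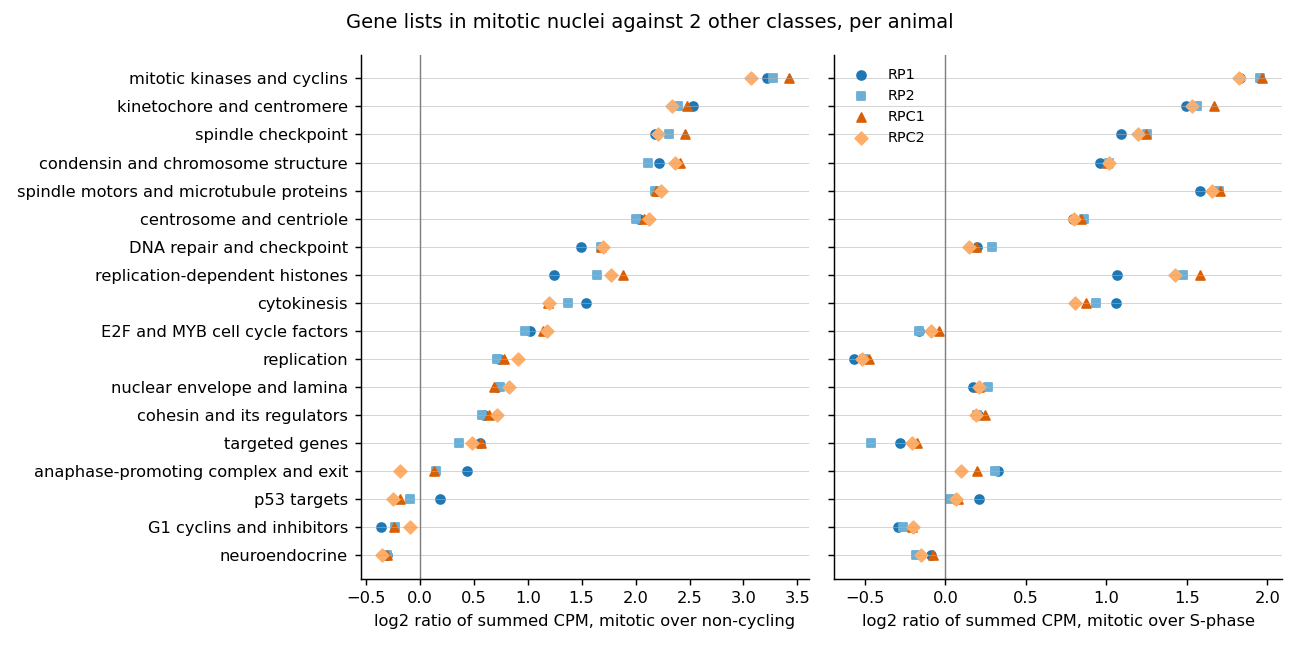
Log2 ratio of the summed CPM of each gene list in mitotic nuclei over non-cycling (left) and over S-phase nuclei (right), with a point per animal. Mitotic kinases and cyclins lie farthest right in both panels; replication genes lie right of 0 on the left (ratios of 1.65 to 1.87) and left of 0 on the right (ratios of 0.676 to 0.721), and neuroendocrine genes lie left of 0 in both.

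Neuroendocrine genes of the tumor were transcribed in the mitotic nuclei at nearly the level of non-cycling nuclei, although their summed level, being as high in endothelial-marked nuclei, does not by itself mark tumor cells. Of the 20 neuroendocrine genes none was 2-fold higher in all animals and 1 was lower, with a median of −0.22. The lower gene was Tph1, the enzyme of serotonin synthesis, at 9.22, 26.2, 3.79 and 25.7 CPM against 21.1, 76.1, 15.0 and 61.8 CPM (−1.40 ± 0.28). Ncam1, an adhesion protein of neuroendocrine cells, was at 845, 688, 886 and 908 CPM against 602, 540.2, 637 and 719.8 CPM (0.41 ± 0.08). Summed over the list the level was 6322, 4972, 7066 and 7245 CPM in mitotic and 7788, 6158, 8730 and 9231 CPM in non-cycling nuclei, lower in each of the 4 animals by a nearly equal factor of 0.81, 0.81, 0.81 and 0.78. The peptide gene Calca, chosen after its values were seen, was at 479, 463, 1310.1 and 1174 CPM in mitotic and 1249, 854, 2606 and 2256 CPM in non-cycling nuclei. The targets of p53, which the tumors lack, showed no member of 11 past the limit in either direction, with Cdkn1a at 24.8, 23.1, 27.4 and 36.6 CPM (0.70 ± 0.38) and Mdm2 at 0.04 ± 0.17.

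Markers of other cells were low in the group, which the rule fixes in part, since it excludes Flt1, Ptprb and Ptprc, and the marked nuclei were chosen by these lists. The summed level of the 8 endothelial markers was 20.6, 28.0, 36.4 and 35.7 CPM, which is 1.05%, 1.40%, 2.67% and 3.29% of that in endothelial-marked nuclei, and Cdh5, the cadherin of endothelial junctions, was at 0.364 to 1.56 CPM. The 9 macrophage markers summed to 25.2, 34.2, 30.5 and 31.2 CPM, or 2.21%, 2.61%, 2.03% and 3.50% of the macrophage-marked nuclei, with Csf1r at 0.607 to 1.91 CPM. The 3 excluded markers were at 0. None of the endothelial and macrophage markers with enough counts, 4 of each, was higher or lower by 2-fold than in non-cycling nuclei. The T or NK cell markers summed to 989, 869, 1255 and 923 CPM, but Skap1 alone gave 949.8, 852, 1214 and 913 CPM in the mitotic nuclei and 856 to 1405 CPM in the other 2 classes, while Cd3e, which defines T cells, was at 0 to 0.130 CPM. Of the alveolar type 1 markers Rtkn2 stood out at 191, 128, 198 and 199 CPM against 36.3, 16.4, 29.8 and 38.5 CPM in S-phase nuclei (2.57 ± 0.27). Skap1 and Rtkn2 were chosen after their values were seen. Club cell markers summed to 18.4, 61.0, 184 and 83.6 CPM, with RPC1 highest in the mitotic and S-phase classes.

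Outside every list, 10 genes with the largest differences came up by the rule for named genes. Pif1 was at 60.3, 76.8, 59.1 and 53.1 CPM in mitotic, 4.91, 5.47, 3.81 and 5.35 in S-phase and 2.01, 1.54, 0.440 and 1.96 CPM in non-cycling nuclei (4.72 ± 0.55). Ankle1, an endonuclease that cuts chromatin bridges at the midbody, was at 60.1, 76.1, 55.9 and 40.0 CPM (4.69 ± 0.48), and Parpbp, an inhibitor of recombination, at 105, 104, 183 and 120.4 CPM (4.56 ± 0.32). Dlgap5, a spindle protein, was at 111, 135, 132 and 141 CPM (4.19 ± 0.29). The others were Efcab11, Troap, Kifc5b, Cdkn3, Cdca2 and Shcbp1. Kifc5b is a close copy of Kifc1, and reads may be split between them. Most of these 10 are known as cell cycle genes that the lists had left out.

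The 5 most lowered genes against non-cycling nuclei were Col4a3, Col4a4, Ano1, Nckap5 and Itgb6. Col4a3, a basement membrane collagen chain of the alveolus, was at 0.849, 2.26, 9.19 and 6.97 CPM in mitotic nuclei and at 30.6, 61.1, 97.6 and 101 CPM in non-cycling nuclei (−3.83 ± 0.44). Itgb6, an integrin of lung epithelium, was at 1.58, 3.30, 7.07 and 3.00 CPM against 21.1, 21.1, 29.5 and 25.5 CPM (−2.53 ± 0.51). None of the 5 was lower than in S-phase nuclei, where for example Col4a3 had a ratio of −0.54 ± 0.57 and Col4a4 of 0.04 ± 0.26. Few markers of alveolar and club cells were lower as well: of the compared markers, 2 of 5 of alveolar type 2, 2 of 6 of alveolar type 1 and 1 of 5 of club cells were lower than in non-cycling nuclei, and none with 5 CPM added or against all other nuclei. The summed levels of the alveolar type 2 and club lists were lower in all 4 animals. They were 0.58, 0.53, 0.63 and 0.45 times and 0.30, 0.40, 0.76 and 0.32 times those of non-cycling nuclei. The alveolar type 1 sum was 309, 193, 263 and 281 CPM against 233, 249, 272 and 378 CPM, higher in RP1 and lower in the other animals. Rtkn2, described above, gave the larger part of this sum in mitotic nuclei. The part of these cells in the lower genes was not tested.

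Members were also described by groups among themselves. Both splits below use genes of the cell cycle to form the groups, so that differences in genes transcribed with them follow in part from the split. Where the members of each animal were split into 3 equal groups by their summed share, which the rule used, the upper group held 1.90, 1.87, 2.72 and 2.54 times the summed level of mitotic kinases and cyclins of the lowest group and 0.91, 0.91, 0.75 and 0.88 times that of replication genes. Histone genes ran with the mitotic genes, at 1.08, 1.61, 1.88 and 1.87 times, while neuroendocrine genes were at 0.99, 0.94, 0.93 and 0.84 times. After drawing 2000 transcripts, 22.4% (305 of 1363), 22.7% (233 of 1026), 27.6% (552 of 1997) and 29.2% (580 of 1987) of the members also met the S-phase conditions. Compared with the other members, these held 1.47, 1.54, 1.42 and 1.41 times as much of the replication list and 0.89, 0.92, 0.85 and 0.92 times as much of mitotic kinases and cyclins. The other nuclei without the 5 excluded genes met the S-phase conditions in 27.7%, 22.7%, 32.6% and 30.1% of cases, so members were not depleted of them in RP2 and were below in the other animals. Endothelial-marked nuclei met them in 9.86%, 17.8%, 28.2% and 19.9% of cases.

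The share of mitotic nuclei was compared between genotypes over animals, at 1000 drawn transcripts per nucleus and among nuclei without the 5 excluded genes. RP1 had 18.9% (1274 of 6726), RP2 13.6% (957 of 7062), RPC1 17.2% (1729 of 10078) and RPC2 22% (1940 of 8807). The genotypes overlapped, since RPC1 lay between both RP animals. RP averaged 16.2% ± 3.81 (SD, n = 2) and RPC 19.6% ± 3.44, a difference of 3.35 points, which was smaller than either SD. The exact permutation test over animals, two-sided, gave p = 0.67. With 2 against 2 animals no p below 0.33 can be reached. Leaving out 1 animal at a time moved the difference from 0.651 points without RP2 to 6.04 points without RP1, and drawing 2000 transcripts gave 1.42 points. Within an animal the share was stable over technical units: over the 7 sublibraries, RP1 ranged from 17.0% to 21.9%, RP2 from 12.5% to 14.4%, RPC1 from 15.8% to 18.9% and RPC2 from 20.8% to 23.0%.

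The genotypes lay apart for nuclei with a very high share of the mitotic genes, and overlapped at a lower limit. At 0.5% or more of 2000 transcripts the genotypes overlapped, with means of 19.2% ± 4.61 (SD, n = 2) in RP and 23.0% ± 4.72 in RPC (exact permutation p = 0.67). At 1% or more of 2000 transcripts, RP1 had 2.35% of its nuclei (95% Wilson interval 1.92 to 2.88), RP2 2.38% (1.95 to 2.91), RPC1 7.41% (6.84 to 8.03) and RPC2 9.66% (8.92 to 10.5), with intervals that cover counting error only. Both RPC animals lay above both RP animals, with means of 2.36% ± 0.0213 and 8.54% ± 1.59 (SD, n = 2) and a difference of 6.17 points (exact permutation p = 0.33, the smallest this design allows). Mki67 had a part in the share, at a mean of 2.61, 2.85, 3.98 and 4.83 counts per 2000 in members, while the other 11 genes together gave 9.18, 8.97, 11.2 and 10.6. With Mki67 left out, 0.542%, 0.589%, 2.91% and 3.21% of the nuclei had 1% or more, a difference of 2.50 points (exact permutation p = 0.33). The limit of 1% was chosen after the values had been seen, so the separation describes these 4 animals. Before the draw these nuclei were deeper in RPC1 and RPC2, at medians of 3931.5 and 3497 transcripts, than in RP1 and RP2, at 3120 and 3079.

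**Figure D4:**
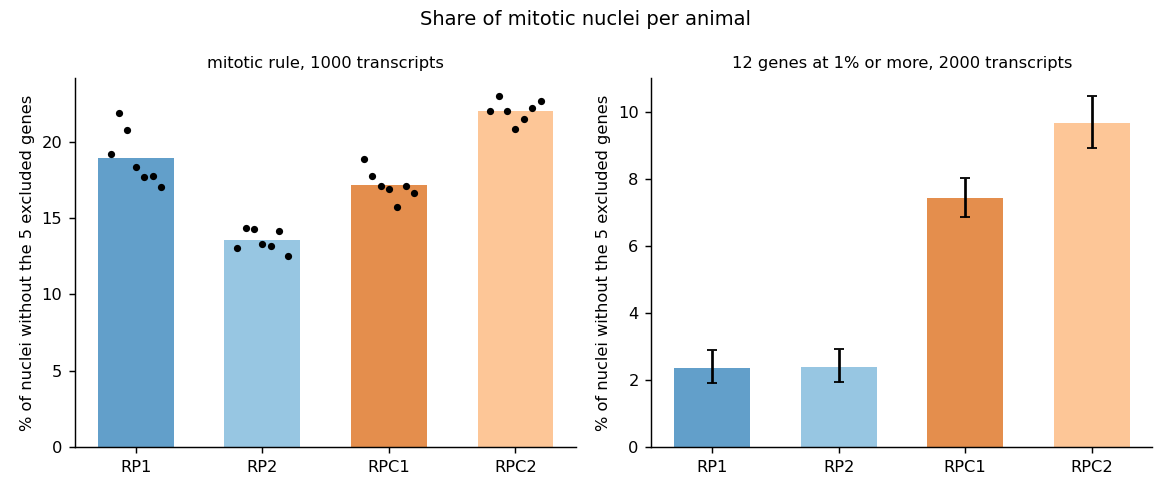
Percentage of nuclei without the 5 excluded genes (y axis) in each animal that met the mitotic rule at 1000 drawn transcripts (left, black points are the 7 sublibraries) and that held the 12 genes at 1% or more of 2000 drawn transcripts (right, bars with 95% Wilson intervals). On the left RPC1 at 17.2% lies between RP2 at 13.6% and RP1 at 18.9%; on the right both RPC animals lie above both RP animals.

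The share of members that also met the S-phase conditions was 28.4% ± 1.09 (SD, n = 2) in RPC and 22.5% ± 0.235 in RP. Both RPC animals lay above both RP animals, with a difference of 5.87 points (exact permutation p = 0.33, the smallest possible), which was 1.89 points at 1000 and 9.58 points without drawing. The other nuclei without the 5 excluded genes also had both RPC animals, at 32.6% and 30.1%, above both RP animals, at 27.7% and 22.7%, so the separation was not seen in members alone.

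The genes that the study targeted were looked at first in the RPC and RP comparison. Counts cover whole genes, so a deleted exon between loxP sites is not visible, and these values check nothing. Casp8 was at 66.9, 61.7, 104 and 71.8 CPM in mitotic nuclei, Rb1 at 310, 329, 381 and 442 CPM and Trp53 at 11.8, 9.73, 18.3 and 12.6 CPM. Their log2 fold changes of RPC over RP were 0.37, 0.30 and 0.44, with adjusted p = 0.44, 0.42 and 0.50 in edgeR's quasi-likelihood test. Transcripts of all 3 were present in both genotypes.

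Across 16678 genes tested in mitotic nuclei, edgeR called 0 genes (0%) at an adjusted p under 0.05, and the smallest adjusted p was 0.098. The sums held 8218654, 5737629, 17916754 and 15299717 transcripts. Without adjustment, p was under 0.05 in 2483 genes (14.9%), of which 1196 were higher in RPC and 1287 lower, and DESeq2, the tool of the study, called 326, 169 higher and 157 lower. Animals of one genotype did not overlap those of the other in 8354 genes (50.1%), with 4222 (25.3%) higher in RPC. Leaving out 1 animal at a time gave 0 calls except without RPC2, where there were 35.

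The rule for named genes took the 5 genes of each direction with the smallest p. None passed in the edgeR fit described, and each passed in 2 or 3 of 9 alternatives, DESeq2 and edgeR without a filter on low counts among them. Il18r1, a chain of the receptor for interleukin 18, was at 7.65 and 7.36 CPM (TMM-scaled) in RP and at 50.5 and 57.0 CPM in RPC (log2 fold change 2.84 ± 0.19, SE; edgeR adjusted p = 0.098). Txnip, an inhibitor of thioredoxin that follows glucose, was at 54.2 and 59.4 CPM in RP and 187 and 198 CPM in RPC (1.76 ± 0.14; edgeR adjusted p = 0.13). Corin, a protease that activates natriuretic peptide, was at 16.1 and 18.9 CPM against 282 and 143 CPM, with RPC1 far above RPC2. Nek10, a kinase, was at 14.1 and 15.1 CPM against 54.5 and 48.8 CPM, and 4930500G05Rik at 9.81 and 13.5 CPM against 61.3 and 62.3 CPM. For these 5 the lower RPC animal stood at more than 2-fold over the higher RP animal.

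In the other direction, 3 of the 5 genes lie near each other on chromosome 4 (GRCm39). Cap1, which recycles actin monomers, was at 719 and 540 CPM in RP and at 44.7 and 58.9 CPM in RPC (−3.60 ± 0.24; edgeR adjusted p = 0.098). Ppt1, a lysosomal thioesterase, was at 357 and 246 CPM against 31.2 and 33.2 CPM (−3.23 ± 0.23), and Mycl, a MYC family factor known in small cell lung cancer, was at 63.7 and 76.4 CPM against 5.81 and 9.24 CPM (−3.22 ± 0.29). The genes lie at chr4:122752832-122779903 for Cap1, chr4:122730010-122754948 for Ppt1 and chr4:122889408-122896282 for Mycl. Cap1 and Ppt1 are transcribed towards each other and overlap at their ends, and whether the counting used strand is not given in the sources used here. Gm30835, an unnamed gene model on chromosome 5, was at 396 and 563 CPM against 10.2 and 14.8 CPM (−5.26 ± 0.31), and Ror1, a receptor of Wnt ligands, at 172 and 208 CPM against 51.7 and 53.5 CPM (−1.85 ± 0.16; edgeR adjusted p = 0.16). A copy number change in single tumors was not tested.

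The same 10 genes kept their direction in non-cycling nuclei, with log2 fold changes of 1.67 for Il18r1, 1.82 for Txnip, 3.13 for Corin, −2.51 for Cap1, −1.92 for Ppt1, −2.87 for Mycl and −4.13 for Gm30835. A fit of both classes asked whether the difference of RPC to RP differed between mitotic and non-cycling nuclei, and edgeR called 0 of 14756 genes (0%). Unadjusted p was under 0.05 in 890 (6.03%), the smallest adjusted p was 0.063 for Pde1a, and DESeq2 called 4. Leaving out an animal gave calls in each case (without RP1 24, without RP2 112, without RPC1 151, without RPC2 61), so the absence of calls rests on all 4 animals.

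**Figure D5:**
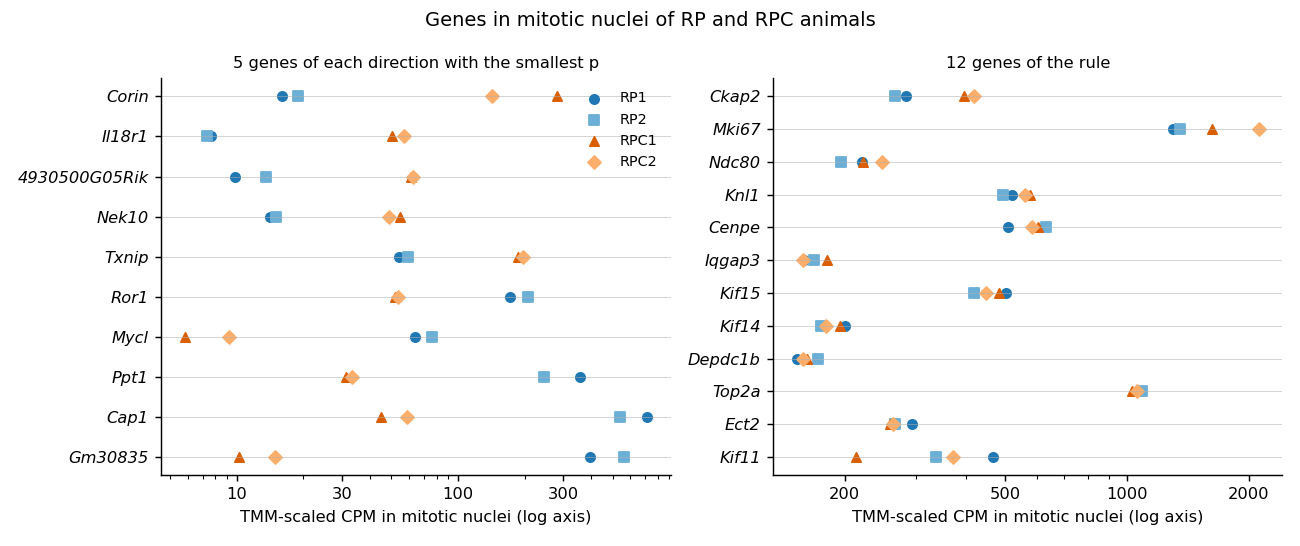
TMM-scaled CPM in mitotic nuclei of each animal (x axis, log scale) for the 5 genes of each direction with the smallest p (left) and for the 12 genes of the rule (right). On the left the genotypes lie apart for all 10 genes, of which none passed the adjusted threshold in edgeR. On the right they lie apart for 6 of the 12 genes, of which 4, Ckap2 and Mki67 among them, are higher in RPC. For Depdc1b the genotypes overlap.

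Genes of division differed little between RPC and RP within members. Of the 12 rule genes 6 had animals apart, 4 of them higher in RPC, with a median log2 fold change of 0.03 against 0.005 over all genes tested. Members were chosen by these 12 genes in both genotypes. Their levels within members are therefore set in part by the rule, and the values for them are a description. Ckap2 was at 283 and 266 CPM (TMM-scaled) in RP and 394 and 419 in RPC (0.57 ± 0.14, SE; edgeR adjusted p = 0.26), and Mki67 at 1302 and 1355 against 1621 and 2125 CPM (0.50 ± 0.20; edgeR adjusted p = 0.34). Kif11 was lower in the mean, at 466 and 338 against 213 and 370.2 CPM, and overlapped. Among the lists, condensin and chromosome structure had 9 of 12 genes with animals apart and 7 of them higher in RPC (median 0.24), and mitotic kinases and cyclins had 16 of 22 apart with 5 higher (median −0.16). Kinetochore genes had 18 of 26 apart and 9 higher (median −0.04), spindle motors 10 of 21 and 3 higher (−0.09), cytokinesis 6 of 13 and 2 higher (−0.17), and replication 19 of 35 and 10 higher (0.06). No gene of any list was called by edgeR, and beside the 50.1% of all genes with animals apart these counts are descriptions. The 20 neuroendocrine genes had 11 apart and 8 higher (median 0.08).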

How the data were processed

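Lung tumor nuclei of 4 mice were profiled by split-pool barcoding (Parse Evercode). The authors aligned reads to GRCm39 with the Parse pipeline and deposited raw counts of transcripts per nucleus and gene, 1 matrix per animal, not normalized, with a table of nuclei of which 9 columns were not used here. Following the limits of the study, at least 300 counts, at most 12000 genes and at most 10% mitochondrial counts were required, which left 38254 of 38353 nuclei. Doublets were not called, and leaving out nuclei above 4 times the median depth of their animal was an alternative.

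Members and gene lists were chosen with earlier results of these data known. Shares were compared after drawing 1000 or 2000 transcripts per nucleus without replacement, and shallower nuclei were left out: at 1000, 49, 46, 41 and 100 members of RP1, RP2, RPC1 and RPC2. Shares were tested by exact permutation over animals, two-sided, and Wilson intervals are at 95%. Counts were summed per animal and class. A gene was compared where 1 of both classes had at least 2 CPM in every animal. RPC was tested against RP with edgeR 4.0.16 (R 4.3.3; quasi-likelihood, TMM, filterByExpr, legacy form, two-sided), with Benjamini-Hochberg adjustment over all genes and 0.05 as the threshold, and DESeq2 1.42.0 was an alternative. The SE was calculated back from the F statistic. The animals of 1 genotype differed by more than sampling noise (mean chi-square per gene 19.8 in RP and 48.4 in RPC, 1 expected without other spread). Tests were checked on simulated counts with less spread between animals than the data, whose biological coefficient of variation was 0.27. The check therefore does not show how many differences the tests could find in these data. Named genes were the 12 rule genes, the 3 targeted genes, in each list up to 4 genes with the largest ratio over non-cycling nuclei at 10 CPM or more and the most lowered one, outside the lists the 10 highest and 5 lowest at 20 CPM or more, and the 5 of each direction with the smallest p between genotypes; part of them is described. Other named genes were chosen after their values were seen. Promoters were read from GRCm39 at the start of the GENCODE canonical transcript of 21654 genes that matched by identifier, and that annotation is not the one the authors used. The E2F letters replaced a longer set after a first search. Of the gene symbols, 297 are shared by several identifiers.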

Additional observations from a re-analysis of the deposited data

How the results depend on the processing

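Against non-cycling nuclei, the count of higher genes was 253 with all other nuclei as the comparison, and 451 to 494 when 1 animal was left out. Lower genes numbered 1 with all other nuclei, 47 with an offset of 5 CPM, 199 without nuclei above 4 times the median depth and 156 to 229 when 1 animal was left out, up to 223 without RP1 and 229 without RPC1. Against S-phase nuclei, lower genes numbered 23 with a minimum of 0.3% for the S-phase genes and 6 to 19 when 1 animal was left out, 19 without RPC1. Between RPC and RP, DESeq2 called 326 genes, edgeR without a filter on low counts 1426, and edgeR with 1 animal left out 0 to 35. For the difference between classes DESeq2 called 4, edgeR without the filter 98, without deep nuclei 1, and with 1 animal left out 24 to 151. The cause of these differences was not tested. Where 1 animal was left out, the lone animal of its genotype was assumed to vary like the others. The difference in the share of mitotic nuclei stayed positive under all alternatives, from 0.651 to 6.23 points. Whether the animals of the genotypes overlapped in this share depended on the alternative. The 10 genes named between genotypes kept their direction in each of 9 alternatives. No paired analysis was possible because each animal belongs to 1 genotype and the labels tie no RP animal to an RPC animal. Depth limits single nuclei most: at 2000 transcripts the rule gene Iqgap3 was seen in 24.5% to 34.4% of members, and the genotype tests rest on 2 animals each.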
